A study of Mus musculus with 2 samples.

Results

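Transcripts of 9 genes that mark vascular smooth muscle cells and pericytes were examined in single skeletal muscle fibres. The genes, Acta2, Myh11, Tagln, Cnn1, Smtn, Pdgfrb, Rgs5, Notch3 and Cspg4, were taken by name from a count table of 35163 gene rows, and all 9 were present. The fibres came from the FDB (flexor digitorum brevis), a fast muscle in the foot of 1 untreated C57BL/6J mouse more than 3 months old. They were freed with collagenase, sorted one to a well by a large-particle sorter into 8 plates, and sequenced by mcSCRB-seq, a plate method that tags every copied RNA with a random molecular barcode (UMI), so that each is counted once. Plates 705 to 708 were on lane 1 and plates 709 to 712 on lane 2, so that both deposited samples were lanes of the same mouse and not replicates. Of 763 wells, 171 held more than 5000 genes and less than 20% mitochondrial UMIs. These comprised 168 whole fibres and 3 fragments cut from the muscle before digestion. By the largest of Myh1, Myh2, Myh4, Myh7 and Myh8, the 171 fibres were 117 fast 2X, 51 fast 2A, 1 fast 2B and 2 slow.

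Blood vessels within muscle are wrapped by mural cells. Smooth muscle cells surround arterioles and contract through a thin filament of smooth muscle actin and a thick filament of smooth muscle myosin, which is switched on by phosphorylation of its light chain. Pericytes sit on capillaries within the basement membrane of the endothelium and depend on platelet-derived growth factor released by endothelial cells, while Notch signalling from the endothelium maintains the mural state. A mature skeletal fibre uses its own actin and myosin genes for contraction. Fibres and capillaries lie side by side in the muscle, and in a whole well, RNA of the fibre and RNA of any cell adhering to it are read together and cannot be told apart.

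Acta2 encodes smooth muscle α-actin, and its promoter is a textbook target of serum response factor (SRF), which binds the CArG box. The boxes are shown because 4 of the 9 genes, Acta2 among them, were high in the same fibres, as described below, and SRF with its coactivators is examined among the pathway genes. Whether SRF had a part in the levels of these genes was not tested. The motif begins with CC and ends with GG, with 6 bases of A or T between, and reads the same on both strands. RefSeq promoters (GRCm38.p6) matched 6 of the 9 members, namely Acta2, Cnn1, Smtn, Rgs5, Notch3 and Cspg4. In the 250 bases before the start, 1.47% of 32851 promoters held an exact box and 8.59% held a box with at most 1 G or C among the middle bases. None of the 6 members held an exact box, and Acta2 alone held boxes with 1 departure. It held 2, beginning 84 and 34 bases before the RefSeq start, and 0.670% of all promoters held 2 or more. They lie on the minus strand at chr19:34255438-34255467 and chr19:34255388-34255417, and in the GENCODE vM21 annotation both stretches overlap an exon of Acta2. The capitals mark the box.
Acta2 box 84 bases upstream: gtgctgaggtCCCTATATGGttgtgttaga
Acta2 box 34 bases upstream: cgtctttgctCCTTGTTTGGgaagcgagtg

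The 171 fibres held 51923865 UMIs in all, between 28827 and 1542996 per fibre, with a median of 239581. At the median depth 1 UMI was worth 4.17 CPM, the UMIs of a gene for every 1000000 UMIs counted, so that a gene below this level was at 0 in many fibres through depth. Limits below are 95% limits. Those of a level (exact Poisson) and of a ratio (exact conditional binomial) cover counting error alone. Those of a share of fibres (exact Clopper-Pearson) treat each fibre as 1 equal draw, although fibres differ in depth and share 1 mouse. No p-value was computed because fibres of 1 mouse are not replicates. UMIs are counted near the 3′ end of a transcript, so levels were not scaled by gene length. All 6 markers of skeletal fibres (Ttn, Acta1, Ckm, Neb, Tnnt3 and Mylpf) were present in all 171 fibres. No stretch of 66 bases, the length of the sequenced read, was shared between a member's annotated transcripts and those of another gene. Among the neighbours, Notch3 overlaps the antisense gene Gm17276, which had 213 UMIs, and Tagln overlaps the end of Pcsk7 over 108 bases on the other strand. Counting used the default settings of zUMIs, and no source used here states the strand setting, so reads in those overlaps are uncertain.

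The members fell into different kinds of distribution. A gene was termed confined when under 50% of fibres had a UMI and the top 5 fibres held at least 50% of its UMIs, and spread when at least 90% of fibres had a UMI and the top 5 held under 25%. Tagln was the 1 confined member, against 0.651% of the 15818 genes with at least 100 UMIs. Smtn and Cspg4 were the 2 spread members, against 25.9% of those genes. The other 6 were intermediate. Pdgfrb, with 88 UMIs, was the only member below the minimum of 100.

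Among the contractile genes, Acta2 (chromosome 19, 34241090 to 34255590, minus strand) had 504 UMIs, a summed level of 9.71 CPM over the 171 fibres (limits 8.88 to 10.6). Per fibre it ranged from 0 through a median of 3.60 to 4239 CPM. A UMI was seen in 108 of 171 fibres (63.2%, limits 55.5 to 70.4), but 4 fibres held 50% of the UMIs. Acta2 was thus detected widely at about the level of 1 UMI and was abundant in very few fibres.

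Myh11, the smooth muscle myosin heavy chain (chromosome 16, 14194535 to 14291372, minus strand), had 820 UMIs or 15.8 CPM (limits 14.7 to 16.9). Its fibre values ran from 0 through a median of 4.84 to 4950 CPM, with a UMI in 112 fibres. The top 5 fibres held 51.0% of the UMIs of Myh11 and 53.4% of those of Acta2, although the same fibres held 6.09% and 5.46% of all UMIs. Acta2 and Myh11 missed the confined term only because more than 50% of fibres had at least 1 UMI. When a count of 2 was required, or detection was taken at the depth of the shallowest fibre, both met the confined term. A UMI was then expected in 16.0% of fibres for Acta2 and 20.6% for Myh11 at the shallowest depth. In both settings only the share of fibres was recomputed, and the share of the top 5 stayed that of the full counts. Whether the UMIs were as concentrated at the shallowest depth was not tested.

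Tagln, which encodes the actin-binding transgelin (chromosome 9, 45929619 to 45936058, minus strand), had 151 UMIs at 2.91 CPM (limits 2.46 to 3.41). It was found in 37 fibres (21.6%, limits 15.7 to 28.6), with a median of 0 and a highest value of 1041 CPM. Its top 5 fibres held 60.9% of the UMIs and 3 fibres held 50%. Cnn1, the calponin of smooth muscle thin filaments (chromosome 9, 22099216 to 22109630, plus strand), had 130 UMIs at 2.504 CPM (limits 2.09 to 2.97). It was found in 47 fibres, and at 47.7% in the top 5 it lay just outside the confined term. The highest Cnn1 value was 432 CPM.

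Smtn, which encodes the actin-associated protein smoothelin (chromosome 11, 3517523 to 3540612, minus strand), differed from the other contractile genes in every one of these measures. It had 4920 UMIs, or 94.8 CPM (limits 92.1 to 97.4), with a UMI in 167 of 171 fibres. The fibre values ran from 0 through a lower quartile of 67.7, a median of 90.9 and an upper quartile of 122 to 345 CPM. Its top 5 fibres held 12.9% of its UMIs and 11.4% of all UMIs, so they held little more of Smtn than of the total. At the depth of the shallowest fibre a Smtn UMI was expected in 89.5% of fibres, just below the 90% needed for the spread term.

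Of the genes that mark the mural membrane and its signalling, Cspg4 was the spread one. Cspg4 encodes the NG2 proteoglycan of pericytes (chromosome 9, 56865033 to 56899870, plus strand). It had 2266 UMIs at 43.6 CPM (limits 41.9 to 45.5) in 162 fibres, with a median of 38.1 and a range of 0 to 251 CPM. At the depth of the shallowest fibre it was expected in 63.9% of fibres, so the spread term did not hold for Cspg4 at that depth.

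Rgs5, a regulator of G-protein signalling that is abundant in pericytes (chromosome 1, 169655501 to 169695813, plus strand), had 693 UMIs at 13.3 CPM (limits 12.4 to 14.4). It was detected in 132 fibres, more than Acta2 or Myh11, with a median of 7.60 and a highest value of 922 CPM. Its top 5 fibres held 47.0% of its UMIs and 2.05% of all UMIs. Notch3, the Notch receptor of mural cells (chromosome 17, 32120820 to 32166852, minus strand), was less uneven. It had 437 UMIs at 8.42 CPM (limits 7.65 to 9.24) in 107 fibres, with a median of 3.80, a highest value of 330 CPM and 25.2% of UMIs in the top 5. Pdgfrb, the receptor for platelet-derived growth factor B, had the lowest level of the 9 at 1.69 CPM (limits 1.36 to 2.09), in 42 fibres, with a highest value of 94.6 CPM that was 4 UMIs in a fragment. A level of 1.69 CPM was below that of 1 UMI at the median depth, and a difference between fibres was not detectable for Pdgfrb in most of them.

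**Figure D1:**
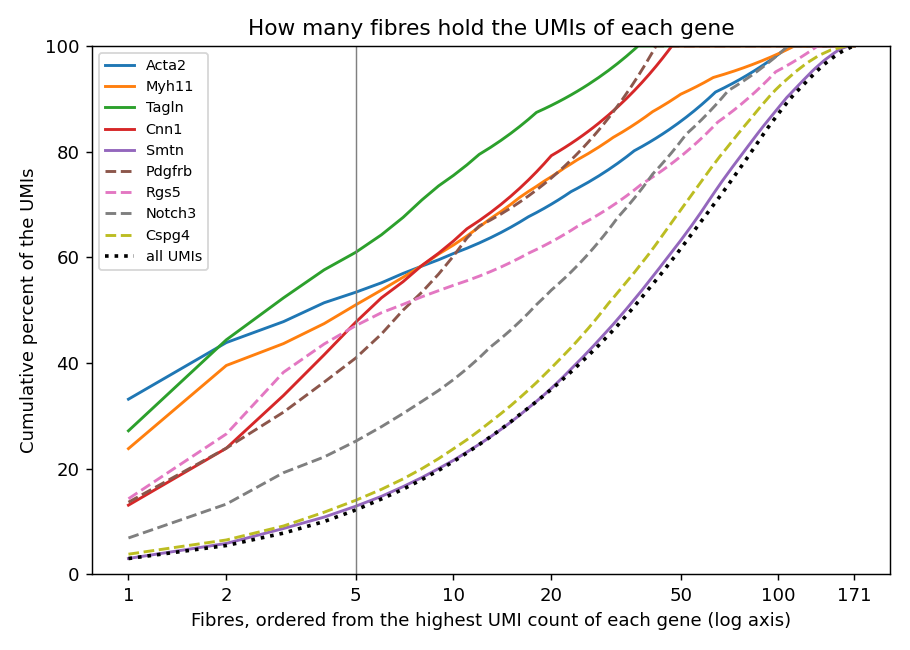
Cumulative percent of each gene's UMIs (vertical axis) over the fibres ordered from the highest UMI count of that gene (horizontal log axis), with all UMIs as the dotted line and a vertical line at 5 fibres. The curves of Smtn (12.9% at 5 fibres) and Cspg4 (14.0%) lie near the dotted line, while Tagln (60.9%), Acta2 (53.4%) and Myh11 (51.0%) start high.

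A pair of fibres, both fast 2X and both on lane 2, held a large share of the contractile genes. Fibre F1 was on plate 710 and had 39394 UMIs in all, rank 164 of 171 by depth. It held 167 UMIs of Acta2, 195 of Myh11, 41 of Tagln and 17 of Cnn1. Fibre F2 was on plate 711 and had 218585 UMIs, with 54 of Acta2, 129 of Myh11, 26 of Tagln and 14 of Cnn1. F1 and F2 were thus the 2 highest fibres for each of these 4 genes by CPM, and also for Notch3. Together they held 43.8% of the UMIs of Acta2, 39.5% of Myh11, 44.4% of Tagln and 23.8% of Cnn1, but 0.497% of all UMIs.

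The summed level of Acta2, Myh11, Tagln and Cnn1 was 10661.5 CPM in F1 and 1020 CPM in F2, and the third fibre had 92.4 CPM. The median of the 171 fibres was 12.9 CPM, with quartiles of 5.50 and 24.4. There was accordingly a gap of more than 10 times between F2 and the next fibre. For Acta2 alone the third value was 34.8 CPM, from 9 UMIs, against 247 CPM in F2. Without F1 and F2 the summed levels were 5.48 CPM (limits 4.86 to 6.15) for Acta2, 9.60 (limits 8.77 to 10.5) for Myh11, 1.63 for Tagln and 1.92 for Cnn1, and no member was confined. The top 5 of the other fibres then held 23.3% of the UMIs of Acta2 and 27.6% of Myh11, but still 41.7% of Tagln and 41.4% of Cnn1. For Cnn1, 13 UMIs were in F3, 10 in F8 and 8 in F11.

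Low counts of these genes were found beyond F1 and F2. Of 171 fibres, 25 had a UMI of none of the 4 genes, 51 of 1, 48 of 2, 31 of 3 and 16 of all 4. The median total was 75093 UMIs in the fibres with none and 388962 in those with all 4, so fibres with none were shallower. As a comparison for detection, Hbb-bs, a haemoglobin gene of red blood cells, had a UMI in 88 of 171 fibres (51.5%) at 9.48 CPM. The shares for Acta2 (63.2%, at 9.71 CPM) and Myh11 (65.5%, at 15.8 CPM) were above it, with Myh11 also at a higher level. Actc1 (75.4%, at 8.38 CPM) and Actg2 (69.0%, at 7.59 CPM) had higher shares than both at lower levels. Of the genes with at least 100 UMIs, 41.3% had a lower share than Acta2 and 43.6% a lower share than Myh11. Limits for these differences in share were not computed, so whether they exceed counting error was not tested. Whether low counts came from the fibre itself was not tested. Wells of the other plates with the same well barcode as F1 held 2 UMIs of the 4 genes in all, 1 of Acta2 and 1 of Tagln, and those for F2 held 15. In the 95 other wells of plate 710 the highest well had 20 UMIs of Acta2 and 31 of Myh11.

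**Figure D2:**
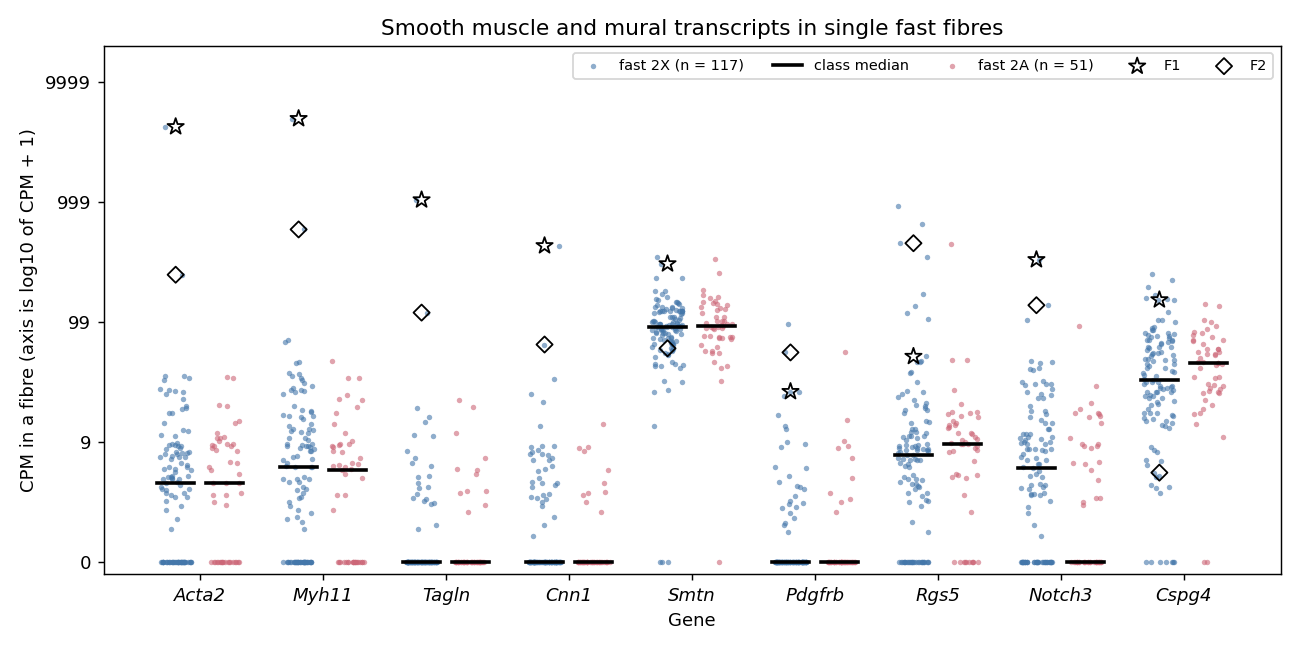
CPM of each gene in the 117 fast 2X and 51 fast 2A fibres, on an axis of log10(CPM + 1), with 1 point per fibre, the class median as a bar, F1 as a star and F2 as a diamond. F1 and F2 stand above all other fibres for Acta2, Myh11, Tagln and Cnn1, while for Smtn F1 has rank 3 at 305 CPM and F2 is at 59.5 CPM.

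Both fibres carried the skeletal program at a low level. F1 had 25029 CPM of the 6 skeletal markers, the lowest of all 171 fibres, and F2 had 33355 CPM, against a median of 130096. The 2 fibres differed in the mural genes. Per 100 UMIs of Myh11, Rgs5 had 1.03 in F1 and 76.7 in F2, Pdgfrb 0.513 and 9.30, and Notch3 6.67 and 23.3. The ratios of Tagln and Cnn1 to Myh11 were closer, at 21.0 and 20.2 for Tagln and 8.72 and 10.9 for Cnn1. Acta2 was at 85.6 per 100 in F1 and 41.9 in F2. In counts, Rgs5 was 2 UMIs in F1 and 99 in F2, and Pdgfrb was 1 and 12. In CPM, Rgs5 was at 50.8 in F1 and 453 in F2, both above the median of 7.60. Notch3 was at 330 CPM in F1, the highest of all fibres. Of 21 mural markers, members included, F1 had 11 at a summed 965 CPM and F2 had 19 at 1052 CPM, against a median of 244. F1 thus had little Rgs5 relative to its contractile genes, and both fibres held mural markers above the median.

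Most lists of markers of other cells were above the median in the same fibres. Of 10 endothelial markers, F1 had 9 at a summed 2132 CPM, with Emcn at 0, and F2 had 9 at 2489 CPM, the highest of all fibres, with Cldn5 at 0. The median of all fibres was 141 CPM. Of 10 fibroblast markers, F1 had 8 at 3960 CPM, also the highest of all fibres, with Lum and Pi16 at 0, and F2 had 8 at 480 CPM, against a median of 44.7. Erythroid genes reached 787 CPM in F1 and 393 CPM in F2, with Hba-a2 and Alas2 at 0 in both, against a median of 4.15. Macrophage markers were at 25.4 CPM in F1, which was 1 UMI of 1 of 7 markers, and 64.05 in F2, from 4 of 7, against a median of 16.01. Schwann cell markers were at 178 and 54.9 CPM against 39.4, tendon markers at 279 and 73.2 against 35.1, and satellite cell markers at 228 and 174 against 107. The sum of 5 adipocyte markers went the other way, at 736 and 595 CPM against a median of 3471. It rested on few of the genes, since the median gene of the list was at 3.16 CPM over all fibres. In F1 the whole 736 CPM came from 1 marker. Fabp4, another of the 5, was at 0 CPM in F1 and 96.1 in F2, against a median of 2.80. The part of these cells in the levels of the members was not tested.

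The fibres high in Rgs5 were mostly others. The highest was F6 on plate 710, with 37 UMIs or 922 CPM, followed by F5, a fragment on plate 710 with 81 UMIs or 651 CPM, then F2 with 453 CPM and F7 on plate 705 with 24 UMIs or 443 CPM. F5, F6 and F7, with 124414, 40124 and 54160 UMIs in all, had 3, 1 and 0 UMIs of Acta2 and 3, 1 and 1 of Myh11. In CPM these were 24.1, 24.9 and 0 for Acta2 and 24.1, 24.9 and 18.5 for Myh11. Except for Acta2 in F7, they were above the upper quartiles of 8.27 CPM for Acta2 and 11.5 for Myh11. All were below the levels of F2, at 247 and 590 CPM. Their endothelial markers were at 1969, 1645 and 868 CPM, and their fibroblast markers at 571, 1520 and 2419 CPM. Their mitochondrial shares were 13.7%, 19.7% and 12.5%, against a median of 5.96%. Pdgfrb had 1, 0 and 3 UMIs in these fibres. Fibre F3, on plate 710 with 627777 UMIs, had 85 UMIs of Rgs5 at 135 CPM with 20 of Acta2, 23 of Myh11 and 28 of Notch3. Smtn was at 305 CPM in F1 from 12 UMIs, rank 3 of the 171 fibres, at 59.5 in F2, 24.9 in F6 and 73.9 in F7, against a median of 90.9. It was at 332 CPM in F4, which had no UMI of Rgs5, Notch3 or Pdgfrb.

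**Figure D3:**
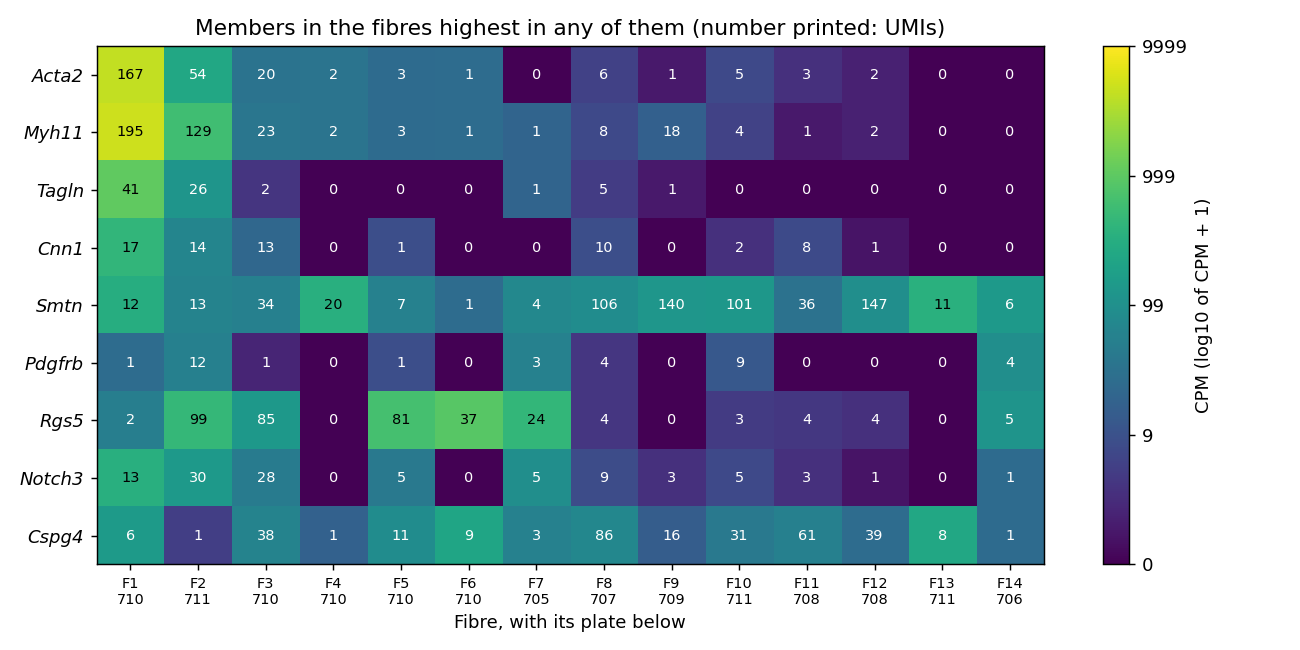
The 9 genes (rows) in the 14 fibres that were among the 2 highest for any of them by CPM or by UMIs (columns, with the plate below), coloured by CPM on a log10(CPM + 1) scale and with the UMI count printed. Acta2, Myh11, Tagln and Cnn1 are high in F1 and F2, Rgs5 is high in F2, F5, F6 and F7 and at 2 UMIs in F1, and Smtn and Cspg4 are present in all 14.

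Over the 171 fibres, the genes with the most alike pattern by Pearson correlation of log2(CPM + 10) showed the same division. The points share 1 mouse, plates and depth, so the values are a description. Tagln was the closest gene to Acta2 (r = 0.71), to Myh11 (r = 0.71) and to Cnn1 (r = 0.72), and Mgp was the closest to Tagln (r = 0.74). Mgp encodes matrix Gla protein, which is made by vascular smooth muscle. Myl9, the regulatory light chain of smooth muscle myosin, was among the closest 5 for all 4 genes, at r = 0.61 to 0.73. These values rested on F1 and F2. Without them r fell to 0.12 between Acta2 and Tagln and to 0.26 between Myh11 and Tagln, and none of the closest genes of Acta2, Myh11, Tagln or Cnn1 was found again.

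Rgs5 was closest to Flt1, an endothelial receptor for vascular endothelial growth factor (r = 0.77), then to Fabp4 (0.71), Adamts4 (0.70), Tm4sf1 (0.69) and Ifitm3 (0.69). These held without F1 and F2, at 0.65 to 0.74, and all 5 genes were found again. By Spearman correlation of CPM, 6 of the 45 pairs of all members were found again, and Flt1 was still the closest gene to Rgs5. With Pecam1, an adhesion molecule of endothelial cells, Rgs5 had r = 0.58, and with log2 of the total UMIs r = -0.30. Notch3 was closest to Nfkbia (r = 0.57) and Pdgfrb to E230016K23Rik (r = 0.55). Smtn had r = 0.48 with Peli2 and 0.45 with Map2k2, both spread genes, and r between -0.18 and 0.13 with every other member. Cspg4 had r = 0.37 with Tanc1 and at most 0.16 with any other member.

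The families of the members gave a scale for these levels. Among the actins, Acta1 of skeletal muscle stood at 29388 CPM, Actb at 313, Acta2 at 9.71, Actc1 of the heart at 8.38, Actg2 of visceral smooth muscle at 7.59 and Actg1 at 3.35 CPM. The limits of Acta2 (8.88 to 10.6) and Actc1 (7.61 to 9.20) overlapped. In F1, Acta2 was at 4239 CPM and Acta1 at 7133 CPM. Actg2 was not concentrated like Acta2, with 16.5% of its UMIs in the top 5 fibres. Among the myosins outside the sarcomere, Myh11 was the lowest in level at 15.8 CPM, below Myh10 at 33.5, Myh9 at 52.3 and Myh14 at 80.9, and the top 5 fibres of the others held between 12.02% and 18.9% of their UMIs, against 51.0% for Myh11.

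Of the smoothelin family, the smoothelin-like genes Smtnl1 and Smtnl2 were spread as Smtn was, and at higher levels of 354 and 419 CPM. In fast 2A over fast 2X fibres, Smtnl1 had a log2 ratio of 0.52 (limits 0.47 to 0.56), Smtnl2 one of -1.10 (limits -1.16 to -1.04) and Smtn one of 0.01 (limits -0.08 to 0.11). The 3 family members thus had 3 different patterns over the classes. Cnn2 and Cnn3 were at 3.72 and 7.40 CPM and Tagln2 at 13.8 CPM, all 3 intermediate, and Tagln3 had 2 UMIs. Among Notch receptors, Notch2 at 18.6 CPM was above Notch3, and Notch1 and Notch4 were below it at 2.85 and 3.51 CPM. Among the regulators of G-protein signalling of the R4 group, Rgs5 was the highest of 9 genes, followed by Rgs3 at 10.1 CPM.

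A gene with few UMIs is confined almost by its count, so the terms were counted over genes with at least 100 UMIs, of which 0.651% were confined and 25.9% spread in the whole table. Of 20 smooth muscle genes, members included, 16 had that many, with 1 confined (Tagln) and 5 spread (Smtn, Lmod1, Synpo2, Mustn1 and Map3k7cl), the latter near the share in the whole table. Lmod1, a leiomodin that nucleates actin, was at 76.4 CPM in 166 fibres, and Synpo2, an actin-binding protein of the Z-disc, at 423 CPM in all 171. Of 21 mural genes, 12 had at least 100 UMIs, with 0 confined and 2 spread, Cspg4 and Abcc9. Abcc9, a subunit of the ATP-sensitive potassium channel found in both pericytes and muscle, was at 160 CPM with a UMI in 169 fibres. Kcnj8, the channel pore that pairs with it in pericytes, was at 1.77 CPM in 38 fibres.

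In the pathways, the ligand Pdgfa (72.0 CPM) was spread, while Pdgfb (19.5 CPM), Pdgfd (8.03 CPM) and the receptor Pdgfra (6.05 CPM) were intermediate. Of 14 other Notch pathway genes, 10 had at least 100 UMIs, with 0 confined and 2 spread. Rbpj, the transcription factor at the end of the pathway (56.9 CPM), and its target Hes1 (103 CPM) were the spread ones. The targets Hey1, Hey2 and Nrarp had 10, 18 and 1 UMIs, too few for a term, and Heyl was intermediate at 3.08 CPM. Srf was spread at 72.9 CPM and was at 0 UMIs in F1 and 6 in F2, where Myocd, its coactivator in smooth and cardiac muscle, had 1 and 14 UMIs. Over all fibres Myocd was at 5.74 CPM in 93 fibres. Of 8 genes of the RhoA pathway and myosin phosphatase, 7 had at least 100 UMIs and 5 were spread, among them Rock2 (277 CPM) and Ppp1r12b (378 CPM). Mylk, the kinase of the myosin light chain, was intermediate, at 1041 CPM in F1 and 215 CPM in F2 against a median of 14.4.

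By fibre class, summed levels of 4 members, Acta2, Myh11, Tagln and Cnn1, were lower in fast 2A than in fast 2X by at least 1 log2 unit, against 4.58% of 15813 genes, and no member was higher by as much, against 1.23%. The median of all genes was -0.12. Acta2 was at 4.70 CPM (limits 3.55 to 6.11) in fast 2A and 11.4 (limits 10.4 to 12.5) in fast 2X, a log2 ratio of -1.28 (limits -1.70 to -0.87). Myh11 was at 7.73 and 18.4 CPM, a log2 ratio of -1.25 (limits -1.58 to -0.94), Tagln at 1.51 and 3.27 CPM (log2 ratio -1.11), and Cnn1 at 1.43 and 2.88 CPM (log2 ratio -1.01). With TMM factors the number lower by at least 1 log2 unit was 2, and without F1 and F2 it was 0.

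Apart from F1 and F2, the fibres of both classes overlapped. The highest fast 2A fibre had 33.6 CPM of Acta2, next to 34.8 CPM in the highest fast 2X fibre other than F1 and F2. The median of Acta2 was 3.60 CPM in fast 2A and 3.58 in fast 2X, and a UMI was seen in 62.7% and 63.2% of fibres. For Myh11 the medians were 4.84 and 5.17 CPM. Without F1 and F2, both fast 2X, the log2 ratios were -0.30 (limits -0.75 to 0.13) for Acta2, -0.40 (limits -0.75 to -0.07) for Myh11, -0.05 for Tagln and -0.56 (limits -1.41 to 0.20) for Cnn1, and none of the 4 had limits wholly below the median of all genes. On lane 1, which held neither fibre, the log2 ratios were -0.02 for Acta2, 0.22 for Myh11, 0.86 (limits -0.34 to 2.01) for Tagln and -0.87 (limits -2.30 to 0.33) for Cnn1. On lane 2 they were -1.78, -1.69, -2.12 and -0.91. A difference of at least 1 log2 unit in these genes was thus not seen without F1 and F2, nor on lane 1. Plate 709 of lane 2, which held neither fibre, had a log2 ratio of -2.03 (limits -3.52 to -0.84) for Myh11 and -0.57 (limits -2.60 to 1.04) for Acta2.

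**Figure D4:**
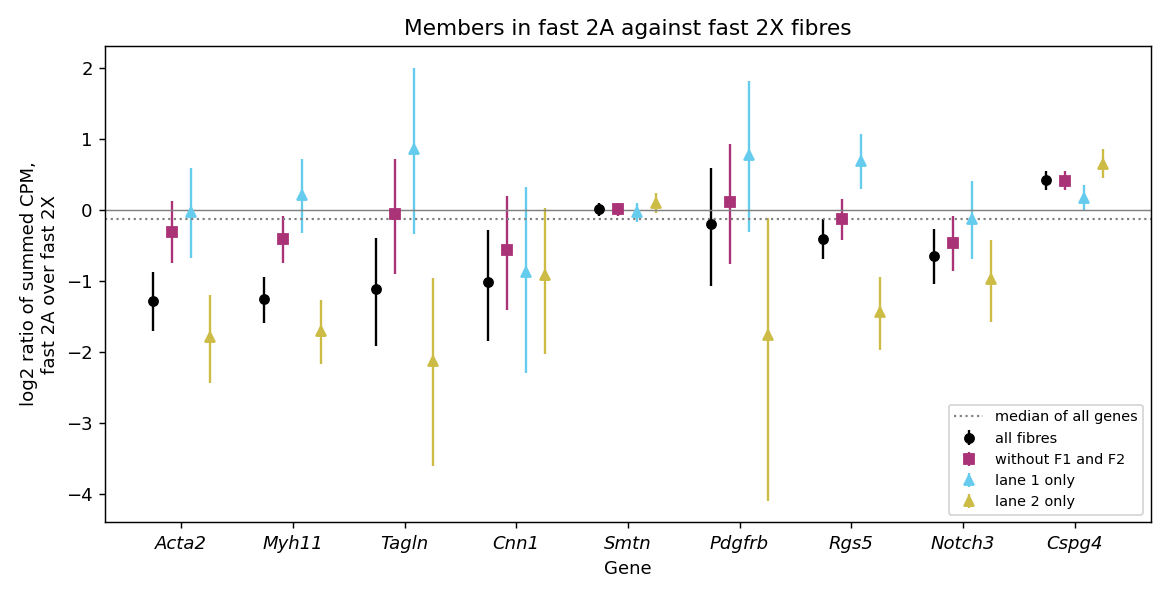
log2 ratio of summed CPM in fast 2A over fast 2X for each member, over all fibres, without F1 and F2, and in each lane alone, with 95% counting limits as bars and the median of all genes as a dotted line. Acta2 moves from -1.28 to -0.30 and Myh11 from -1.25 to -0.40 when F1 and F2 are left out, while Smtn stays at 0.01 and Cspg4 at 0.42.

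Smtn was at 95.4 CPM (limits 89.9 to 101) in fast 2A and 94.5 (limits 91.5 to 97.6) in fast 2X, a log2 ratio of 0.01 (limits -0.08 to 0.11). Its medians over fibres were 91.5 and 90.9 CPM, and the highest fibres had 332 and 345 CPM. Scaling by TMM factors gave 0.13 (limits 0.03 to 0.22). The 2 slow fibres had 49.7 and 89.8 CPM and the fast 2B fibre 132 CPM. Over the 8 plates the summed level of Smtn ran from 69.2 CPM on plate 708 to 113 on plate 711, while that of Acta2 ran from 2.85 to 43.2 CPM and that of Rgs5 from 2.97 to 39.0 CPM, both highest on plate 710. The plates therefore differed much less in Smtn than in the genes of the high fibres.

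Cspg4 was higher in fast 2A at 53.5 CPM (limits 49.4 to 57.8) than in fast 2X at 39.9 CPM (limits 38.0 to 41.9), a log2 ratio of 0.42 (limits 0.29 to 0.56). The medians were 45.04 and 31.9 CPM. The log2 ratio was 0.18 (limits -0.00 to 0.36) on lane 1 and 0.66 (limits 0.46 to 0.86) on lane 2, and it was above 0 on 7 of 8 plates, with -0.28 on plate 706. As a ratio of the means over fibres, at 49.1 and 47.2 CPM, the log2 value was 0.06, so its size differed between the summed levels, the medians and the means. Rgs5 had a log2 ratio of -0.40 (limits -0.68 to -0.12) over both lanes, but 0.69 (limits 0.30 to 1.08) on lane 1 and -1.43 (limits -1.96 to -0.93) on lane 2, and the direction was not shared between the lanes. Without F1 and F2 it was -0.12 (limits -0.41 to 0.17). Notch3 had -0.64 (limits -1.03 to -0.26), with -0.12 on lane 1 and -0.97 on lane 2, and -0.46 (limits -0.86 to -0.08) without F1 and F2. Pdgfrb, with 17 UMIs in fast 2A and 64 in fast 2X, had -0.19 (limits -1.06 to 0.60), with 0.78 (limits -0.31 to 1.82) on lane 1 and -1.76 (limits -4.09 to -0.11) on lane 2.

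The 592 wells outside the filters, with 15593835 UMIs and a median mitochondrial share of 48.0%, held more Rgs5 and Pdgfrb. Rgs5 and Pdgfrb, 2 of the 9 members, were higher there than in the kept fibres by at least 1 log2 unit, against 4.64% of 17054 genes, and Smtn was lower by as much, against 36.2%. The median of all genes was -0.64. Rgs5 was at 144 CPM (limits 139 to 151) in the excluded wells and 13.3 CPM in the kept fibres, a log2 ratio of 3.44 (limits 3.31 to 3.56). Of all genes compared, 99.9% had a lower ratio than Rgs5. Pdgfrb was at 9.36 and 1.69 CPM, a log2 ratio of 2.47 (limits 2.07 to 2.86).

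For Rgs5 the difference ran through all plates, with log2 ratios from 1.15 (limits 0.86 to 1.43) on plate 710 to 5.34 (limits 4.73 to 6.01) on plate 712. Whole fibres and fragments outside the filters had similar levels of Rgs5, at 147 and 136 CPM. It was highest in the 111 wells that failed by mitochondrial share alone, at 226 CPM in 82.0% of wells, compared with 56.0 CPM in the 374 wells that failed both filters. In the 107 wells with too few genes alone it was at 127 CPM, with 86.4% of its UMIs in the top 5 wells. Pdgfrb was higher on 7 of 8 plates, the exception being plate 711 with a log2 ratio of -0.19 (limits -1.53 to 0.99). Endothelial markers were also higher, at 467 CPM in the excluded wells and 176 CPM in the kept ones, with Flt1 at 136 and 27.4 CPM. Erythroid genes were at 146 and 18.7 CPM, fibroblast markers at 191 and 91.5 CPM and macrophage markers at 45.7 and 24.1 CPM. Schwann cell markers differed little, at 71.5 and 64.3 CPM. Lower in the excluded wells were satellite cell (73.4 and 116 CPM), tendon (27.6 and 42.9 CPM), adipocyte (1087 and 3645 CPM) and skeletal markers (49540 and 131808 CPM). The adipocyte sum rested on few of its genes, with the median gene at 3.16 CPM in the kept fibres. The part of these other cells in the level of Rgs5 was not tested.

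The contractile genes differed less between kept and excluded wells. Acta2 was at 5.77 CPM in the excluded wells and 9.71 in the kept fibres (log2 ratio -0.75), Tagln at 1.73 and 2.91 CPM (-0.75) and Cnn1 at 3.08 and 2.504 CPM (0.30, limits -0.21 to 0.79). Myh11 was at 18.9 and 15.8 CPM, a log2 ratio of 0.26 (limits 0.06 to 0.45), and Notch3 at 13.8 and 8.42 CPM, a log2 ratio of 0.71 (limits 0.47 to 0.95). In UMIs, the highest excluded wells had 14 of Myh11, 10 of Acta2 and 12 of Cnn1. Excluded wells were shallower, and in CPM the highest was above F2 for each of the 4 genes. The well with 10 UMIs of Acta2 stood at 406 CPM and the one with 12 of Cnn1 at 521 CPM, the latter above F1, while the highest levels of Myh11 (829 CPM) and Tagln (342 CPM) each came from 1 UMI in a well of 1206 and 2928 UMIs. By UMIs summed over Acta2, Myh11, Tagln and Cnn1, the highest excluded well had 15, or 416 CPM, from 2 of the 4 genes. Smtn was at 39.5 CPM (log2 ratio -1.26, limits -1.39 to -1.14) and Cspg4 at 24.8 CPM (-0.81). In the 107 wells with too few genes alone, limits spanned 0 for both. Smtn was there at 79.7 CPM (log2 ratio -0.25, limits -0.76 to 0.22) and Cspg4 at 53.8 CPM (0.30, limits -0.33 to 0.87).

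Because mitochondrial genes took so large a share in the excluded wells, the levels were also computed over the UMIs of the other genes alone. On that scale 5 members were higher in the excluded wells by at least 1 log2 unit, Rgs5, Pdgfrb, Notch3, Cnn1 and Myh11, among 29.8% of all genes. Rgs5 stood at 304 and 14.2 CPM (log2 ratio 4.42) and Pdgfrb at 19.7 and 1.80 (3.45). Myh11 was then at 39.7 and 16.8 CPM (log2 ratio 1.24), Cnn1 at 6.48 and 2.66 (1.283) and Notch3 at 29.03 and 8.95 (1.70). Acta2 was at 12.2 and 10.3 CPM (log2 ratio 0.24, limits -0.11 to 0.56), Tagln at 3.65 and 3.09 (0.24, limits -0.41 to 0.83) and Cspg4 at 52.3 and 46.4 (0.17, limits 0.01 to 0.33), each opposite in sign to the value over all UMIs. The change of totals shifts the log2 ratio of every gene outside the mitochondrial genome by the same amount, so the change of sign is not particular to these genes. Smtn was at 83.2 and 101 CPM (log2 ratio -0.28, limits -0.40 to -0.16). Limits were thus above 0 on both scales for Rgs5, Pdgfrb, Notch3 and Myh11 and below 0 on both for Smtn. For Cnn1 they were above 0 on the second scale alone, and for Acta2 and Tagln they spanned 0 there.

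**Figure D5:**
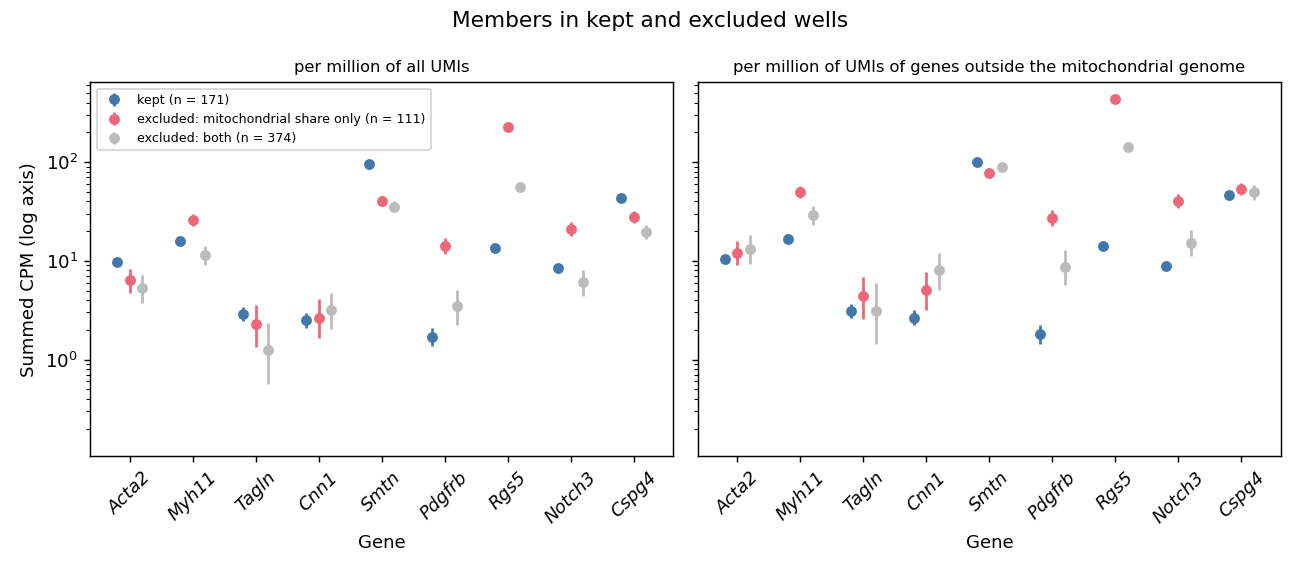
Summed CPM (log axis, 95% counting limits as bars) of the 9 genes in the 171 kept fibres, the 111 wells excluded for mitochondrial share alone and the 374 that failed both filters, over all UMIs (left) and over UMIs of genes outside the mitochondrial genome (right). Rgs5 is higher in both groups of excluded wells on either scale (226 and 56.0 against 13.3 CPM on the left), while Smtn is lower on the left (39.5 CPM over all 592 excluded wells, 94.8 kept) and nearer the kept level on the right.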

How the data were processed

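Single FDB fibres of 1 mouse were profiled by mcSCRB-seq. The authors mapped reads to GRCm38 with spike-in references using STAR 2.5.4b within zUMIs and tabulated UMI counts with featureCounts, and the deposited table holds these raw counts below description rows for each well, with no normalisation. They ran zUMIs with default settings, and whether the deposited counts include intronic reads is not given in the sources used here. The wells were filtered as in the study (more than 5000 genes, under 20% mitochondrial UMIs) and classed by the largest Myh gene. Counts were summed over fibres, divided by the total as CPM and compared with exact limits (Python 3.11.15, numpy 2.4.6, scipy 1.17.1), with no p-value. Scripts were tested on simulated data. The members and gene lists were chosen with earlier results of these data known. Named genes were the members, the 5 genes most alike to each, their families, and for each of 15 lists the 3 highest in CPM, with others named for their call or their values after these were seen. A total of 4 rows with repeated date-like names were left out of the correlations. Alternatives changed detection, depth, filters, scaling, lanes and fibres, with TMM and median-of-ratios factors computed from their published formulas. The removal of F1 and F2 was chosen after seeing the data.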

Additional observations from a re-analysis of the deposited data

How the results depend on the processing

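Tagln was confined and Smtn spread under every alternative run except that Tagln was intermediate without F1 and F2 and Smtn fell short of spread at the shallowest depth. The number of confined members was 1, and 3 when 2 UMIs were needed or at the shallowest depth (Acta2, Myh11 and Tagln), 3 with a mitochondrial maximum of 10% or limits of 40% and 20% (Tagln, Cnn1 and Pdgfrb), 3 in either lane alone, and 0 without F1 and F2. The number of spread members was 2, and 1 when 2 UMIs were needed or when mt-Rnr1 and mt-Rnr2 were left out of the mitochondrial share, which kept 234 fibres, 0 at the shallowest depth, and 1 to 2 in single lanes. Of all genes, 0.651% were confined with at least 100 UMIs, 0.0457% with at least 500 and 42.2% with no minimum. The spread share was 25.9% with at least 100 UMIs and 46.9% with at least 500.

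For fast 2A against fast 2X, 4 members were lower by at least 1 log2 unit, 2 with TMM or median-of-ratios factors, 0 without the highest fibre of each member or without F1 and F2, and 0 to 5 with a lane left out. Members with limits below 0 numbered 6, 2 without F1 and F2, and 0 to 6 with a lane left out, and those with limits above 0 numbered 1, or 2 with TMM or median-of-ratios factors. With a lane left out the log2 ratio ran from -1.69 to 0.22 for Myh11, from -2.12 to 0.86 for Tagln and from -1.43 to 0.69 for Rgs5, reversed in each case without lane 2. The percent of all genes lower by 1 log2 unit was 4.58 and, at minimums of 500 and none, 1.75 and 26.0. With totals free of mitochondrial genes, 5 members were higher and 0 lower in the excluded wells by 1 log2 unit, in place of 2 and 1, among 29.8% and 5.40% of all genes, and Acta2 (0.24), Tagln (0.24) and Cspg4 (0.17) reversed. Of the 45 most alike gene pairs, 19 were found again with log2(CPM + 1), 6 with Spearman correlation, 23 without the highest fibre of each member and 14 without F1 and F2. Except where the alternative leaves out fibres, UMIs or genes by construction, the cause was not tested. No paired analysis was possible because both samples are lanes of 1 mouse and belong to 1 group. At the shallowest depth the terms of Acta2, Myh11, Smtn and Cspg4 changed. Only the share of fibres with a UMI was recomputed there, and the top 5 share was that of the full counts.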
